A study of Mus musculus with 9 samples.

Results

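Box C/D and box H/ACA small nucleolar ribonucleoproteins (snoRNPs) are enzymes of the nucleolus that modify ribosomal RNA. Each is built from a small nucleolar RNA (snoRNA), which pairs with the site to be modified, and a set of core proteins. Fbl (fibrillarin, the methyltransferase), Nop56 and Nop58 belong to the C/D class, and Dkc1 (dyskerin, the pseudouridine synthase), Gar1, Nop10 and Nhp2 to the H/ACA class. Nolc1 is a nucleolar chaperone that binds both classes, Ncl (nucleolin) is an abundant nucleolar RNA-binding protein, and Ppan is a Brix-domain factor of large ribosomal subunit assembly. Most mammalian snoRNAs are cut out of the introns of host genes, and several of these protein genes are such hosts. The 10 genes were listed by name. Each was read by the probe set that carries exactly that 1 symbol and has the highest mean log2 intensity over all 9 arrays. This found 9 of the 10, out of 22180 genes named on the array. The only probe set of Fbl also carries a second symbol, so Fbl was not analysed here.

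The arrays measured RNA from lesions that had been laser-captured from fixed prostates of male mice (mixed strain, 12 months old). The control group was high-grade prostatic intraepithelial neoplasia (HG-PIN, dysplastic cells within the gland) of PbCre mice without the T-3Mb-Erg allele, in which a probasin promoter drives Cre recombinase in prostate epithelium. The other groups were HG-PIN and solid tumours of PbCre mice with T-3Mb-Erg/+, which carry in addition 1 copy of an allele that joins Tmprss2 to Erg and lacks the genes between them. All 3 groups thus share the Cre transgene, and none is normal tissue. Each group had 3 arrays from 3 mice. Every T-3Mb-Erg mouse gave 1 tumour and 1 HG-PIN array, so that 6 mice stand behind the 9 arrays. The 3 arrays of a group limit the precision of every value below.

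Values are log2 intensities. As a gauge of background, the 95th percentile of the mean signal of 1394 olfactory and vomeronasal receptor genes was 4.80, and it is called the receptor level here. The means of Ppan, Nop56, Nop10 and Ncl lay above it, and those of Nop58, Dkc1, Gar1, Nhp2 and Nolc1 below. The 95th percentile of log2 signal over all probe sets of an array ran from 6.16 to 6.49 in controls, from 6.26 to 6.61 in HG-PIN of T-3Mb-Erg mice and from 6.15 to 6.65 in tumours. Epithelial and other markers differed between the groups as well. The mean of 12 luminal epithelial markers lay between 5.61 and 6.79 in controls, 6.68 and 7.11 in HG-PIN of T-3Mb-Erg mice, and 4.51 and 4.83 in tumours, close to the receptor level. Of the 12, 8 were lower by limma's test in tumours than in T-3Mb-Erg HG-PIN, where 0.216% of all genes were. The mean of 10 fibroblast markers lay between 4.25 and 4.36, 4.58 and 5.22, and 5.23 and 7.31 in the same order, and that of 8 smooth muscle markers between 4.64 and 5.01, 4.94 and 6.98, and 4.52 and 5.92. The mean of 7 basal epithelial markers lay between 4.89 and 5.22, 5.57 and 5.90, and 4.71 and 4.75. It was thus highest in T-3Mb-Erg HG-PIN without overlap, as the brighter Ppan probe set was. The 7 did not move alike. From control HG-PIN to T-3Mb-Erg HG-PIN, Krt15 was at 1.98, Krt17 at 1.32, Krt14 at 0.85 and Itga6 at 0.72. Col17a1 was at 0.18, Trp63 at 0.05 and Itgb4 at -0.32. Of the 7 only Krt15 was lower by limma's test in tumours than in T-3Mb-Erg HG-PIN (-3.0, adjusted p = 0.0158). No value of any probe set was 0. The part of these markers in the results below was not tested. In captured tissue, fewer cells of a type and less RNA per cell cannot be told apart.

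Ppan had been chosen by its small p between the HG-PIN groups in an earlier analysis of these arrays, and the rest of the list by name. That contrast therefore describes the genes and tests none of them. The HG-PIN arrays that helped to choose Ppan are also the reference for tumours. Its tumour changes are thus descriptions too, and a fall from T-3Mb-Erg HG-PIN is no independent support. The probe set of Ppan (17515058) read 6.78, 5.18 and 7.01 in control HG-PIN, 8.59, 8.76 and 9.14 in HG-PIN of T-3Mb-Erg mice, and 7.45, 7.52 and 6.54 in tumours. All 3 T-3Mb-Erg HG-PIN arrays lay above the 6 others, while tumours and control HG-PIN overlapped. The group means were 6.32 ± 1.0, 8.83 ± 0.28 and 7.17 ± 0.55 (SD, n = 3 each). The log2 change was 2.51 (SE 0.52) from control HG-PIN to T-3Mb-Erg HG-PIN and -1.66 (SE 0.52) from there to tumours, with the tumour below the HG-PIN of its own mouse in 3 of 3 mice (-1.14, -1.25 and -2.60). Control HG-PIN replicate 2 was the lowest array, and without it the first of these changes was 1.93.

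**Figure D1:**
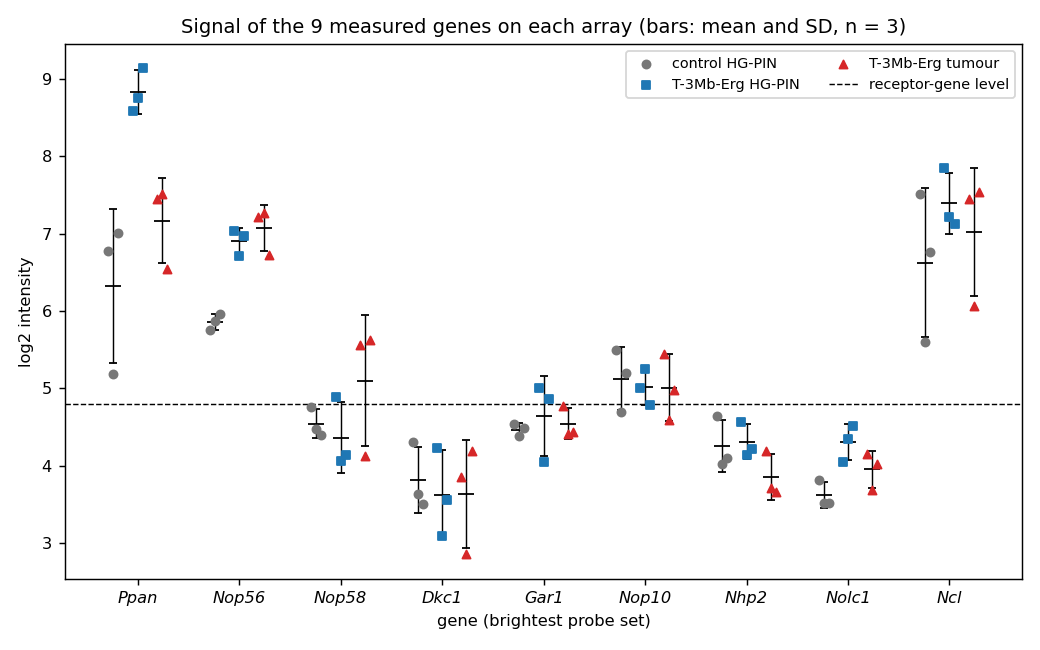
Log2 intensity of the brightest probe set of each of the 9 measured genes on all 9 arrays, by group, with the group mean and SD (n = 3) and the receptor level of 4.80 as a dashed line. Ppan is highest on the 3 T-3Mb-Erg HG-PIN arrays, Nop56 is lower on the 3 control arrays than on the 6 others, and most other genes overlap between groups.

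The array carries a second Ppan probe set (17515045), and the pair did not move together. It read 4.71, 4.32 and 4.13 in control HG-PIN, 3.93, 4.54 and 4.35 in HG-PIN of T-3Mb-Erg mice, and 4.27, 4.31 and 4.90 in tumours. The 3 groups overlapped, and their means of 4.39 ± 0.29, 4.27 ± 0.31 and 4.50 ± 0.36 all lay below the receptor level. With this probe set in place of the brighter one, the log2 change between the HG-PIN groups was -0.12 (95% interval -0.68 to 0.45). The tumour change against T-3Mb-Erg HG-PIN was 0.22 (-0.35 to 0.79). The brighter probe set was the one chosen by the HG-PIN contrast, so the values of the pair stand side by side as a description. RefSeq places 2 snoRNA genes inside Ppan, and no probe set is annotated to either. The annotation does not say which part of the gene a probe set reads. Whether the brighter probe set reads the Ppan messenger RNA or another RNA of the locus was not tested.

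Nop56, the C/D core protein that pairs with Nop58, showed the same kind of split among its 3 probe sets. The brightest (17376272) read 5.75, 5.87 and 5.96 in control HG-PIN, 7.03, 6.71 and 6.97 in HG-PIN of T-3Mb-Erg mice, and 7.21, 7.27 and 6.73 in tumours. Both T-3Mb-Erg groups lay above control HG-PIN without overlap and overlapped each other. The change between the HG-PIN groups was 1.04 (SE 0.32). Tumours exceeded control HG-PIN by 1.21 (SE 0.32, 95% interval 0.52 to 1.91), which did not pass over all genes (limma, adjusted p = 0.165). This value passed in 2 of 18 alternative settings, with array weights, which count more variable arrays less (adjusted p = 0.0124), and with the signal range of each array as a term (adjusted p = 0.0406); over the 18 it ran up to 0.661. The tumour change against T-3Mb-Erg HG-PIN was 0.17 (-0.53 to 0.87, adjusted p = 0.995).

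The second Nop56 probe set (17376274) was wide, with 5.87, 2.33 and 4.48 in control HG-PIN, 4.66, 5.29 and 6.60 in HG-PIN of T-3Mb-Erg mice, and 4.62, 5.44 and 5.11 in tumours. All 3 groups overlapped on it. The third (17376252) read 5.35, 4.75 and 4.72, then 4.95, 4.43 and 5.19, then 5.05, 4.43 and 4.96 in the same order of groups. Here the means were 4.94 ± 0.36, 4.86 ± 0.39 and 4.81 ± 0.33, and the changes were -0.08 (95% interval -0.72 to 0.56) between the HG-PIN groups and -0.13 (-0.77 to 0.51) from control HG-PIN to tumours. The second probe set was at 1.29 (95% interval -0.32 to 2.9) between the HG-PIN groups. From control HG-PIN to tumours it was at 0.83 (-0.78 to 2.43). It thus had the sign of the brightest probe set, with intervals that include 0, while the third showed no clear change either way. The size of the Nop56 change against control HG-PIN depended on the probe set. With the mean of the 3 probe sets the change between the HG-PIN groups was 0.75.

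**Figure D2:**
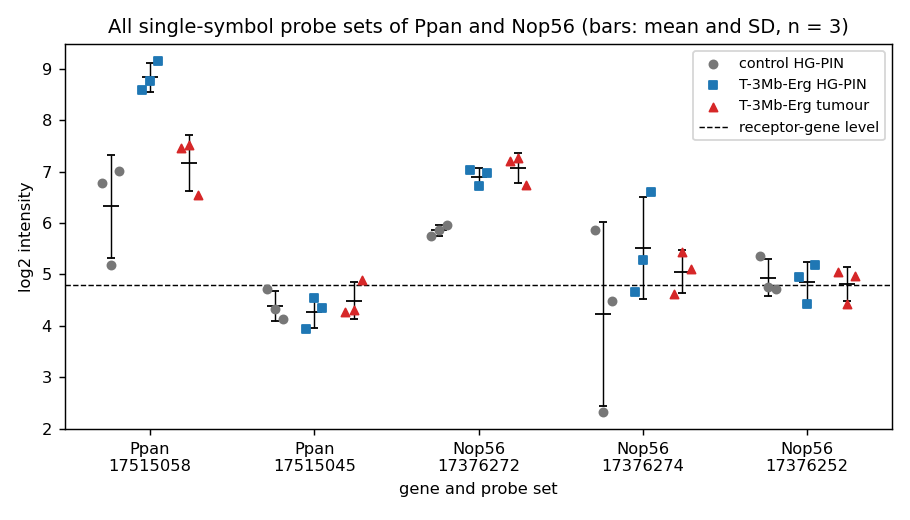
Log2 intensity of every single-symbol probe set of Ppan (2) and Nop56 (3) on all 9 arrays, with the group mean and SD (n = 3); levels are to be compared within a probe set only. The brightest probe set of each gene separates control HG-PIN from T-3Mb-Erg HG-PIN, while the dimmest of each overlaps in all groups.

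Nop58, the other scaffold protein of C/D snoRNPs, read 4.76, 4.47 and 4.40 in control HG-PIN, 4.89, 4.06 and 4.14 in HG-PIN of T-3Mb-Erg mice, and 5.56, 4.12 and 5.62 in tumours. Tumour replicates 1 and 3 were the highest of all 9 arrays and replicate 2 lay among the HG-PIN values. The 95th percentile of signal was 6.49, 6.15 and 6.65 on tumour replicates 1, 2 and 3. Over the 9 arrays Nop58 correlated with that percentile at Pearson's r = 0.72, against 0.83 for Ncl and 0.09 for Ppan. The tumour change against T-3Mb-Erg HG-PIN was 0.74 (-0.11 to 1.59, limma, adjusted p = 0.747), positive in 3 of 3 mice (0.67, 0.06 and 1.48). It was 1.26 without tumour replicate 2 and 0.44 without tumour replicate 3. Between the HG-PIN groups it was -0.18 (SE 0.39). Snu13, the remaining protein of the C/D core, also did not pass, at 0.51 (SE 0.45, adjusted p = 0.938) for tumours against T-3Mb-Erg HG-PIN.

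The 4 H/ACA proteins stayed close to 0 between the HG-PIN groups, with log2 changes from -0.19 to 0.17, and none had groups without overlap in any comparison. Dkc1, the catalytic subunit, read 4.30, 3.63 and 3.50 in control HG-PIN, 4.23, 3.09 and 3.55 in HG-PIN of T-3Mb-Erg mice, and 3.85, 2.85 and 4.19 in tumours. Its group means of 3.81, 3.62 and 3.63 differed by less than the SD within the groups (0.43, 0.57 and 0.70). Gar1, which binds the catalytic domain of dyskerin, had means of 4.47 ± 0.08, 4.64 ± 0.52 and 4.54 ± 0.20. Nop10, the smallest core protein, had means of 5.12 ± 0.40, 5.02 ± 0.23 and 5.01 ± 0.43, the closest of the 4 to each other. Nop10 was also the only H/ACA gene above the receptor level.

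Nhp2, the RNA-binding subunit, was the H/ACA gene with the largest tumour difference. It read 4.64, 4.02 and 4.10 in control HG-PIN, 4.57, 4.14 and 4.22 in HG-PIN of T-3Mb-Erg mice, and 4.19, 3.71 and 3.66 in tumours. The tumour was below the HG-PIN of its own mouse in 3 of 3 mice (-0.38, -0.43 and -0.56), yet the groups overlapped. The change was -0.46 (-0.98 to 0.07, limma, adjusted p = 0.747). It was -0.30 when replicate 1 of T-3Mb-Erg HG-PIN was left out. For Dkc1, Gar1 and Nop10 the same comparison gave 95% intervals of -0.83 to 0.84, -0.68 to 0.49 and -0.67 to 0.66. Differences within those bounds were not excluded.

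Nolc1, the chaperone, read 3.82, 3.52 and 3.52 in control HG-PIN, 4.05, 4.35 and 4.51 in HG-PIN of T-3Mb-Erg mice, and 4.15, 3.68 and 4.02 in tumours. The T-3Mb-Erg HG-PIN arrays all lay above control HG-PIN, with a change of 0.68 (SE 0.21), while every mean lay below the receptor level. Tumours differed from T-3Mb-Erg HG-PIN by -0.36 (-0.82 to 0.11, limma, adjusted p = 0.810) and were lower in 2 of 3 mice. With a pseudocount of 8, which damps dim genes, the change between the HG-PIN groups was 0.45.

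Ncl read 7.52, 5.60 and 6.76 in control HG-PIN, 7.85, 7.21 and 7.12 in HG-PIN of T-3Mb-Erg mice, and 7.45, 6.07 and 7.54 in tumours. The 3 groups overlapped, and in each of them the lowest array was the one with the lowest 95th percentile of signal, as it was for Nop10. Its change between the HG-PIN groups was 0.77 (SE 0.55), and 0.26 without control HG-PIN replicate 2. Tumours differed from T-3Mb-Erg HG-PIN by -0.38 (-1.59 to 0.83, limma, adjusted p = 0.987) and from control HG-PIN by 0.39 (adjusted p = 0.904).

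**Figure D3:**
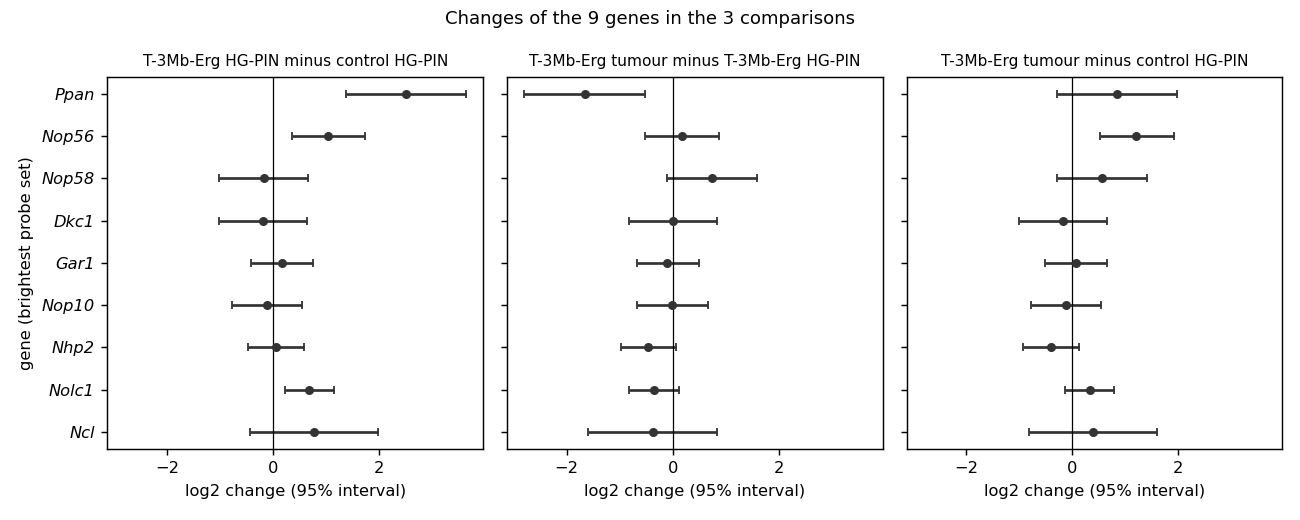
Log2 change (points) with its 95% interval (bars) from the limma fit for the 9 genes in the 3 comparisons, each by its brightest probe set. The intervals of Ppan, Nop56 and Nolc1 lie above 0 between the HG-PIN groups, the contrast that chose Ppan. That of Ppan lies below 0 in tumours against T-3Mb-Erg HG-PIN, whose arrays helped to choose it. That of Nop56 lies above 0 in tumours against control HG-PIN.

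Counted over the list, the HG-PIN groups did not overlap for 3 of the 9 genes, Ppan, Nop56 and Nolc1, all higher in T-3Mb-Erg HG-PIN; over all 16635 genes tested the groups did not overlap for 10.1%, and for 4.86% with T-3Mb-Erg HG-PIN higher. This is the contrast that chose Ppan, and no reading is drawn from the count. In tumours against T-3Mb-Erg HG-PIN none of the 8 genes other than Ppan passed limma's test, where 0.283% of all genes passed. None of the 8 had an unadjusted p under 0.05, where 610 of the 16635 genes were higher and 662 lower. The median change of the 8 was -0.05, against -0.01 over all genes. None of the 8 had groups without overlap, where 11.4% of all genes had. Ppan itself was lower without overlap, as 6.43% of all genes were, but against arrays that had helped to choose it. In tumours against control HG-PIN none of the 8 passed, where 0.18% of all genes passed. Nop56 alone had an unadjusted p under 0.05, where 788 of the 16635 genes were higher and 763 lower. No reading is drawn from that count. The median of the 8 was 0.20, against -0.03 over all genes, and the groups did not overlap for 1 of them, Nop56, where 13.7% of all genes did not and 6.2% were higher without overlap. The comparisons share arrays and are not independent of each other.

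Several of the genes are snoRNA hosts, and 14 snoRNA genes lie inside 5 of the 10 in RefSeq: 5 in Nop56, 4 in Nop58, 2 each in Ncl and Ppan, and 1 in Dkc1. A single-symbol probe set read 5 of the 14, namely Snord110 in Nop56, Snord70 and Snord11 in Nop58, and Snora75 and Snord82 in Ncl. C/D snoRNAs (Snord) guide methylation and H/ACA snoRNAs (Snora) pseudouridylation of ribosomal RNA. How much of such a signal comes from the host transcript was not tested. The snoRNA genes were taken by position, inside genes listed with earlier results of these data known. Their p-values below, also those of alternative settings, are therefore no independent support.

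Snora75, inside Ncl, read 6.04, 6.36 and 6.63 in control HG-PIN, 8.30, 9.84 and 10.22 in HG-PIN of T-3Mb-Erg mice, and 9.63, 9.67 and 8.85 in tumours. Both T-3Mb-Erg groups lay above control HG-PIN without overlap and overlapped each other. It exceeded control HG-PIN by 3.11 (SE 0.54, limma, adjusted p = 0.269) in T-3Mb-Erg HG-PIN and by 3.04 (SE 0.54, adjusted p = 0.0548) in tumours. The former value passed in 2 of 18 alternative settings, with array weights (0.0177) and with the signal range as a term (0.0261), and its adjusted p ran up to 0.98. The latter value passed in 5 of 18 alternative settings, with an adjusted p between 0.00136 and 0.248 over the 18; among the 5 were the fits that left out tumour replicate 2 (0.0404) or replicate 1 of T-3Mb-Erg HG-PIN (0.0407). Snord82, in the same host, read 6.96, 5.89 and 7.35, then 8.55, 9.25 and 10.42, then 8.75, 9.78 and 7.89 in the same order of groups. Control HG-PIN was again below both other groups without overlap, with changes of 2.67 (SE 0.63, adjusted p = 0.735) and 2.07 (SE 0.63, adjusted p = 0.261). Ncl itself overlapped between all groups on the same arrays.

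Snord70, inside Nop58, read 3.45, 2.84 and 4.85 in control HG-PIN, 7.07, 7.76 and 7.27 in HG-PIN of T-3Mb-Erg mice, and 5.74, 6.50 and 5.21 in tumours. Its 3 groups did not overlap at all, in the order T-3Mb-Erg HG-PIN, tumour, control HG-PIN. The control mean of 3.71 lay below the receptor level. The changes were 3.66 (SE 0.49, limma, adjusted p = 0.114) between the HG-PIN groups, -1.55 (SE 0.50, adjusted p = 0.371) for tumours against T-3Mb-Erg HG-PIN and 2.11 (SE 0.49, adjusted p = 0.124) for tumours against control HG-PIN. The first passed in 4 of 18 alternative settings (adjusted p between 0.014 and 0.584 over the 18), among them the fits without control HG-PIN replicate 3 (0.0241) and without tumour replicate 2 (0.0277). The third passed with array weights alone, at 1.72 (adjusted p = 0.0309, and up to 0.41 over the 18). Snord11, in the same host, read 6.42, 5.60 and 7.07, then 7.64, 8.39 and 6.27, then 7.29, 8.91 and 6.38, and all 3 groups overlapped. Snord110, inside Nop56, read 3.19, 3.86 and 4.50, then 4.41, 4.28 and 6.25, then 3.96, 3.61 and 3.38. It was thus lower in tumours than in T-3Mb-Erg HG-PIN without overlap (-1.33, adjusted p = 0.465) and at -0.20 against control HG-PIN (adjusted p = 0.947). Its mean over the 9 arrays, 4.16, lay below the receptor level. The differences within the 3 mice were -0.44, -0.67 and -2.87. Leaving out replicate 3 of T-3Mb-Erg HG-PIN gave -0.65 for the tumour change against that group.

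The within-array difference between a snoRNA and its host was compared by an exact two-sided permutation test, which cannot go below 0.10 with 3 arrays against 3. From control HG-PIN to T-3Mb-Erg HG-PIN the difference moved by 3.84 for Snord70 over Nop58 and 1.90 for Snord82 over Ncl (exact permutation p = 0.10 each). It moved by 2.34 for Snora75 over Ncl and 1.24 for Snord11 over Nop58 (exact permutation p = 0.20 each), and by 0.08 for Snord110 over the brightest Nop56 probe set (exact permutation p = 0.90). In tumours against control HG-PIN the shifts ran from -1.41 for Snord110 to 2.65 for Snora75, with exact permutation p from 0.10 to 0.80. A total of 15 such comparisons was made, and none could pass an adjusted threshold.

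**Figure D4:**
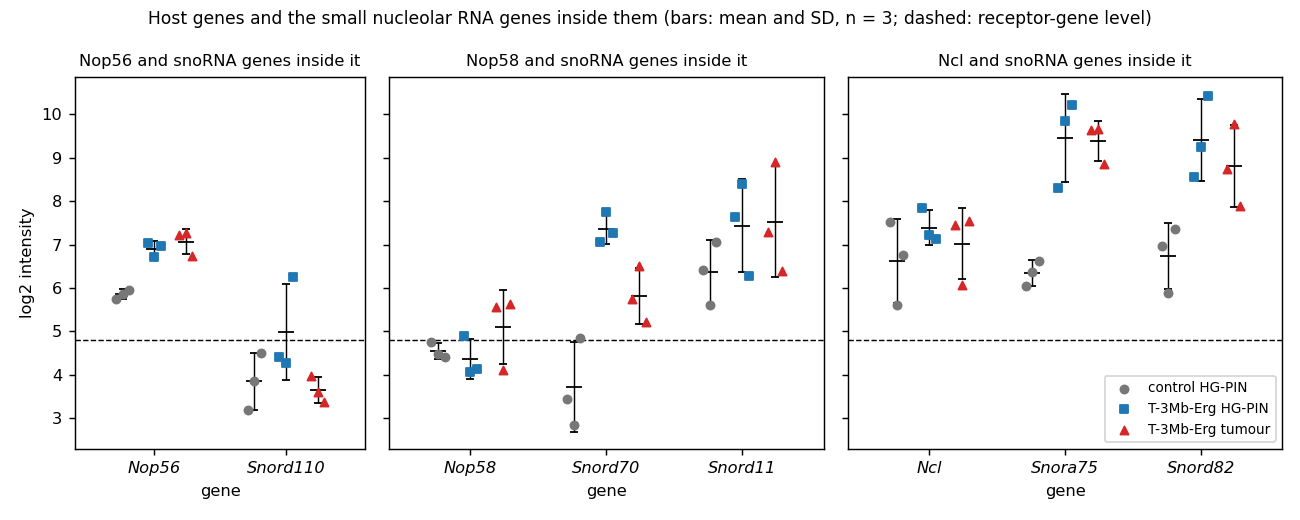
Log2 intensity of Nop56, Nop58 and Ncl and of the 5 measured snoRNA genes inside them, on all 9 arrays by group, with the group mean and SD (n = 3) and the receptor level of 4.80 dashed. Snord70, Snora75 and Snord82 are higher on the 6 T-3Mb-Erg arrays than on the 3 control arrays, while Nop58 and Ncl overlap between all groups.

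Among the 16635 genes tested and not in the list, the 3 whose log2 values over the 9 arrays were most like those of the brighter Ppan probe set were Ier2 (Pearson's r = 0.95), Taf11 (0.93) and Snord70 (0.92). Ier2 and Taf11 spanned less than 1 log2 unit, from 3.72 to 4.63 and from 3.49 to 4.21, below the receptor level, while Snord70 spanned 2.84 to 7.76. For the mean of the other 8 genes they were Sucla2 (0.98), Msl3 (0.97) and Snhg1 (0.97), all with means below the receptor level. Ppan itself correlated with Nolc1 at 0.79 and with Nop58 at -0.31, and the 28 pairs among the other 8 genes had a median r of 0.37 (-0.27 to 0.73). These are descriptions over 9 arrays from 6 mice that share 1 upstream normalization.

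The wider pathway gave no call. In both tumour comparisons none of the genes of the lists below passed limma's test, where 0.283% and 0.18% of all genes passed. Between the HG-PIN groups 0% of all genes passed, so the lack of a call there is not particular to these lists. The values of Ppan within the lists remain descriptions. Those of the named genes that passed with array weights are given with that value. Of 27 tested assembly factors of the large (60S) subunit, Ppan among them, 15 were positive and 12 negative between the HG-PIN groups, with a median of 0.06 against 0.00 over all genes, of which 49.5% were positive. In tumours against T-3Mb-Erg HG-PIN 17 were positive, where 48.9% of all genes were, with a median of 0.06. In tumours against control HG-PIN 16 were positive, where 46.3% of all genes were. In tumours against T-3Mb-Erg HG-PIN the smallest p values among the 60S factors other than Ppan were those of Wdr12, a partner of Pes1 and Bop1 (-0.59, adjusted p = 0.596), and Noc2l (-0.50, adjusted p = 0.758). Of the Brix-domain relatives of Ppan, Imp4 was at -0.56 (SE 0.29, adjusted p = 0.998) and Brix1 at 0.33 (SE 0.53, adjusted p = 0.998) between the HG-PIN groups. Imp4 was at -0.58 (adjusted p = 0.584) in tumours against control HG-PIN.

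Of 34 tested genes of the small-subunit processome, the complex that processes the precursor of 18S ribosomal RNA, 20 were positive between the HG-PIN groups, with a median of 0.03. Utp15 stood at -0.66 and Nol10 at 0.59 (adjusted p = 0.998 each). In tumours Wdr75 was at 1.09 against T-3Mb-Erg HG-PIN (SE 0.31, adjusted p = 0.291) and at 0.87 against control HG-PIN (adjusted p = 0.363), with Krr1 at 0.95 in the latter (adjusted p = 0.316). Wdr75 had groups without overlap in both and passed in both with array weights (adjusted p = 0.0159 and 0.0276). Of 12 tested snoRNP assembly factors, Nolc1 among them, 7 were positive between the HG-PIN groups (median 0.04). In tumours against T-3Mb-Erg HG-PIN 7 were positive as well (median 0.08). Coil, the scaffold of Cajal bodies, was lower in both T-3Mb-Erg groups than in control HG-PIN without overlap (-0.44, adjusted p = 0.998, and -0.31, adjusted p = 0.749).

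The 13 tested genes of RNA polymerase I and its factors, which transcribe ribosomal RNA, had medians of -0.11, -0.01 and 0.19 in the 3 comparisons. Twistnb, a polymerase I subunit, was at 0.98 in tumours against T-3Mb-Erg HG-PIN (adjusted p = 0.469), and Taf1b, a promoter-binding factor, at 0.61 against control HG-PIN (adjusted p = 0.316, and 0.0245 with array weights). Of 13 tested nucleolar proteins, Ncl and Nolc1 included, 7 were positive between the HG-PIN groups (median 0.06). Npm1 was at 1.06 there (limma, adjusted p = 0.998, and 0.41 without control HG-PIN replicate 2). In tumours against control HG-PIN 10 of the 13 were positive and 3 negative (median 0.32), where 46.3% of all genes were positive. Gnl3 was at 1.06 in that comparison (adjusted p = 0.548), and Rpl5 was at -1.07 (adjusted p = 0.288, and 0.00757 with array weights). The 6 tested genes of Myc, a known activator of ribosome biogenesis, and its partners had medians of 0.23, -0.06 and 0.00. Among them Mxi1, a Myc antagonist, was at 1.18 between the HG-PIN groups (adjusted p = 0.998, and 0.68 without control HG-PIN replicate 2). Of 14 tested proliferation genes 11 were positive in tumours against T-3Mb-Erg HG-PIN, with a median of 0.33. They included Rrm2, a ribonucleotide reductase subunit (3.20, adjusted p = 0.195), and Ccna2, cyclin A (1.06, adjusted p = 0.278). Without tumour replicate 2 Rrm2 passed at 4.04 (adjusted p = 0.037), and with array weights both passed (adjusted p = 0.00999 and 0.0203).

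**Figure D5:**
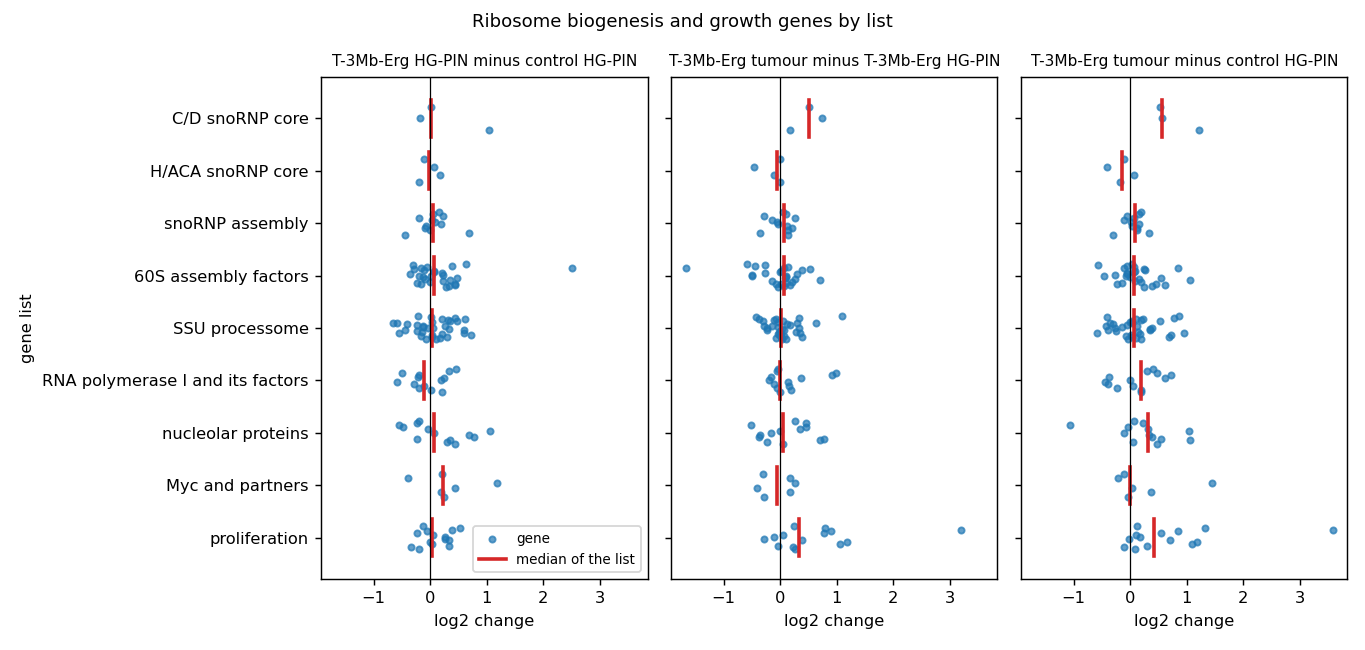
Log2 change of each tested gene (points) by list, with the median of the list (red line), in the 3 comparisons. Medians lie between -0.15 and 0.56 throughout, and the points farthest to the right between the HG-PIN groups and farthest to the left in tumours against T-3Mb-Erg HG-PIN are Ppan, at 2.51 and -1.66.

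RefSeq start-site windows of GRCm38.p6, from 250 bases before to 50 after the start, were found for all 9 measured genes. They were searched on both strands for CACGTG, the E box bound by Myc, and CCGGAAG, a core bound by ETS factors, the family of Erg; no match of one overlapped a match of the other in these windows, and the motifs were chosen after the values were seen. CACGTG occurred in 0 of the 9, and in 7.15% of all 32851 such windows. CCGGAAG occurred in 4 of the 9, Ppan, Gar1, Nhp2 and Nolc1, and in 8.86% of all windows. The windows of all genes were not matched to the 9 for expression or base content, so no reading is drawn from these shares. The 4 are shown because the study's allele concerns Erg, from 50 bases before to 30 after the start, 5′ to 3′ on the gene's strand, with the motif in capitals. A match is a description of these letters and not a bound site.
Ppan, chr9:20888125-20888204, plus strand: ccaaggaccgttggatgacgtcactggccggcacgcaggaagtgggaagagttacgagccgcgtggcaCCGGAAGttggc
Gar1, chr3:129831367-129831446, minus strand: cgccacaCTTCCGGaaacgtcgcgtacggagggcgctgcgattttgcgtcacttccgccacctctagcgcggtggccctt
Nhp2, chr11:51619723-51619802, plus strand: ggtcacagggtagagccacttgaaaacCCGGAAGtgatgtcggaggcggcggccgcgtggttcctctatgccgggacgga
Nolc1, chr19:46075797-46075876, plus strand: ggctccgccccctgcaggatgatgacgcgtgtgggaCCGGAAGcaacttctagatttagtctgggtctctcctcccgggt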

How the data were processed

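Laser-captured lesions on 9 Affymetrix Mouse Gene 2.0 ST arrays were analysed, after amplification with a NuGEN Ovation system per the labels' protocols. The authors deposited 1 linear intensity for each of 41345 probe sets; of their background correction, probe summary and normalization the sources used here say nothing. Platform annotation, updated by Entrez identifier through RefSeq (GRCm38.p6), gave 1 symbol to 23521 probe sets, several to 1814 and none to 16010. Intensities were taken to log2 with no pseudocount. For each of 22180 symbols the brightest probe set was kept. Removing the lowest 25% by mean log2 (below 3.25) left 16635 genes, among them all 9 measured genes of the list.

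The model, in limma 3.58.1 under R 4.3.3, held group means for the 9 arrays with the mouse as random block (consensus correlation -0.01) and trended empirical Bayes variances. P-values were adjusted by Benjamini-Hochberg over the 16635 genes and called at 0.05. The labels' mouse identifiers give the pairing; deviations of same-mouse arrays correlated at 0.17, 0.10 and -0.30. The fit was tested on simulated data. A further part of the genotype, which all groups share, is not reported here. Genes and gene lists were chosen with earlier results of these data known. Named genes were the listed genes, the measured snoRNA genes inside them, the 3 genes most like Ppan and the 3 most like the mean of the others and, from each pathway list and comparison, called genes up to 4 or else the 2 with the smallest p; not all of these are printed. Alternatives changed the filter, normalization, pseudocount, block, arrays in the fit, array weights, signal range and probe set; using the other probe sets of Ppan and Nop56 was added after seeing the data.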

Additional observations from a re-analysis of the deposited data

How the results depend on the processing

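None of the 8 genes other than Ppan passed in tumours against T-3Mb-Erg HG-PIN under any of 19 alternatives, among them the mouse as a fixed replicate block (0 passed) and no replicate block (0 passed); neither changed a call of a listed gene. In tumours against control HG-PIN 1 passed with array weights and 1 with the 95th percentile of signal as a term, Nop56 in both, and 0 elsewhere. Over all genes, calls in tumours against T-3Mb-Erg HG-PIN numbered 47, but 405 with array weights, 197 with the percentile term, 85 after quantile normalization, 26 with the fixed replicate block, 20 with a pseudocount of 8 and 18 after median centring. In tumours against control HG-PIN they numbered 30, but 938, 198 and 97 with the first 3 of these, 18 with the pseudocount, 12 after centring and 7 on the 6 arrays of both groups. Without 1 array they ran from 0 to 110 and from 0 to 261. Between the HG-PIN groups they numbered 0, but 9 with array weights, 7 with the percentile term, 4 on 6 arrays and up to 6 without 1 array.

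The sign changed in values that did not pass; the cause was not tested. With array weights these were, in tumours against T-3Mb-Erg HG-PIN, Gar1 (0.22), Nop10 (0.22), Ncl (0.03) and Snord11 (-0.35), in tumours against control HG-PIN Nop10 (0.04), and between the HG-PIN groups Brix1 (-0.19) and Snu13 (-0.17). With the percentile term they were Dkc1 (-0.04) and Brix1 (0.00) in tumours against T-3Mb-Erg HG-PIN and Snu13 (-0.09) between the HG-PIN groups, where quantile normalization gave Snu13 -0.08. Nop10 in tumours against T-3Mb-Erg HG-PIN was at 0.01 after centring and 0.00 with the pseudocount. With the mean of all probe sets Nop56 was at -0.11 in that comparison and Coil at 0.01 in tumours against control HG-PIN. The other probe sets of Nop56 gave -0.46 and -0.05 in the former and the dimmest -0.13 in the latter.

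Leaving out 1 array at a time gave ranges that cross 0. In tumours against T-3Mb-Erg HG-PIN they were -0.53 to 0.70 for Brix1, -0.35 to 0.45 for Dkc1, -0.41 to 0.10 for Gar1, -0.68 to 0.11 for Ncl, -0.23 to 0.18 for Nop10, -0.45 to 0.73 for Rpf1, -0.63 to 0.39 for Snora75, -0.69 to 0.73 for Snord11, -1.07 to 0.04 for Snord82 and -0.02 to 0.40 for Tcof1. In tumours against control HG-PIN they were -0.11 to 1.03 for Brix1, -0.47 to 0.26 for Dkc1, -0.07 to 0.20 for Gar1, -0.12 to 0.88 for Ncl, -0.33 to 0.07 for Nop10 and -0.53 to 0.12 for Snord110. Between the HG-PIN groups they were -0.17 to 0.92 for Brix1, -0.25 to 0.33 for Snu13, -0.51 to 0.17 for Dkc1, -0.03 to 0.48 for Gar1, -0.10 to 0.25 for Nhp2, -0.33 to 0.07 for Nop10 and -0.48 to 0.08 for Nop58. The median over all 9 genes ran from -0.03 to 0.48 there and from -0.36 to 0.09 in tumours against T-3Mb-Erg HG-PIN. The median 95% interval, which is not adjusted over genes, spanned 0.59 log2 units to either side of a change. Smaller differences of most genes were not detectable. Larger ones also failed to pass after adjustment, such as 1.21 for Nop56 in tumours against control HG-PIN. Rrm2 at 3.20 in tumours against T-3Mb-Erg HG-PIN did not pass either. Dim genes lie near background.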
